A study of Mus musculus with 4 samples.

Results

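The Hes, Hey and Id genes encode repressors and inhibitors of the basic helix-loop-helix (bHLH) class. Several of these factors hold neural progenitors back from becoming neurons. The genes were taken from the table of gene counts by symbol, as Hes1, Hes5, Hes6, Hey1, Hey2, Heyl, Id1, Id2, Id3 and Id4. All 10 were found, on 1 row each of the 23240 rows, and all 10 passed the filter on low counts. The counts come from cortices of mouse embryos at embryonic day 15.5. The embryos came from a cross of heterozygous Nestin-GFP mice with homozygous DCX-mRFP mice, and all carried both reporters. Double-coloured cells were collected as neurons (2 libraries), and cells that were green alone as neural progenitor cells, or NPCs (2 libraries). No cells were treated. The Nestin reporter marks progenitors and the DCX reporter marks newly formed neurons, so the groups are sorted mixtures defined by fluorescence and not single cell types. The series asks how splicing differs between these groups. The table holds 1 value per gene, and exon use was not analysed here.

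Hes and Hey proteins bind DNA, and Hes proteins recruit Groucho/TLE corepressors. Most Hes and Hey genes are induced by Notch signalling between neighbouring cells through the DNA-binding factor Rbpj. In the embryonic cortex Hes1 and Hes5 are the main Notch effectors, which repress proneural genes such as Neurog2 and keep radial glia dividing. Hes6 differs in that it is known to oppose Hes1, and in Xenopus it is raised by proneural factors. Hey genes are Notch targets known from brain and from blood vessels. Id proteins have a helix-loop-helix but no DNA-binding basic region, so they hold E proteins such as Tcf3, Tcf4 and Tcf12 in inactive pairs, and BMP signalling through Smad proteins induces them.

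Promoter windows are shown first because the Notch factor Rbpj and the Smads are known to act on several of these genes. RefSeq windows (GRCm38.p6) were matched for 6 of the 10 genes, Hes5, Hes6, Hey2, Id2, Id3 and Id4. The 250 bases before each start site were searched on both strands for TGGGAA, the core of the Rbpj site, and for GGCGCC, a GC-rich Smad element known from Id genes, which reads the same on both strands. These 4 windows carry the contrast between a classical Notch target (Hes5), the Hes gene known to oppose Hes1 (Hes6), and the Id genes with the highest counts (Id2, Id4). Capitals mark TGGGAA, its reverse complement TTCCCA, and GGCGCC, and the Id2 window stops where an annotated Id2 exon begins.
Hes5: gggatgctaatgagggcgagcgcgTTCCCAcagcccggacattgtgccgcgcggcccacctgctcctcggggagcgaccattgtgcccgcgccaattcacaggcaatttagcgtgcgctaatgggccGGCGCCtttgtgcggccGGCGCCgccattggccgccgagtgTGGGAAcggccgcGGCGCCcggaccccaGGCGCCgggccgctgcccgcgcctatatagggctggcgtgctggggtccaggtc
Hes6: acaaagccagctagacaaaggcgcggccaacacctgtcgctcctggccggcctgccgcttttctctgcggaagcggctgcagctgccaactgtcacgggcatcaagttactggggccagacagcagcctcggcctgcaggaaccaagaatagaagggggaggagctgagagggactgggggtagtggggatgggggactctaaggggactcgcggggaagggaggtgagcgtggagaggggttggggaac
Id2: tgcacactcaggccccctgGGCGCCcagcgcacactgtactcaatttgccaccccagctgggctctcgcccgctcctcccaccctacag
Id4: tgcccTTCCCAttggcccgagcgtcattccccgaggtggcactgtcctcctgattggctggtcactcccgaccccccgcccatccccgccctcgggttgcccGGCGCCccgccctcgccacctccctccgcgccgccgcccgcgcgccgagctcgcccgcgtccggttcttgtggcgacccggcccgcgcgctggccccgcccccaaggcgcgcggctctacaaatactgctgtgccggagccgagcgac
The Hes5 window is chr4:154960673-154960922 on the plus strand, and the Hes6 window is chr1:91414039-91414288 on the minus strand. The Id2 stretch is chr12:25096254-25096342 on the minus strand, the part of its window that lies 250 to 162 bases before the start site. The Id4 window is chr13:48260866-48261115 on the plus strand. The Hes5 window also overlaps an exon of the noncoding antisense gene Gm20421.

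The Hes5 window held 2 matches to the Rbpj core, which begin 226 and 82 bases before the start site and face opposite ways. Of 32851 mouse promoter windows of the same length, 21.6% held at least 1 such match and 2.77% held 2 or more. Hey2 had 1 match, beginning 207 bases before its start site, and Id4 had 1, beginning 245 bases before its start site. These letters were not in the windows of Id2, Id3 or either of the 2 annotated starts of Hes6. The Id3 window lay wholly within annotated exons, and the longest stretch of the Id2 window outside exons was the 89 bases shown. For these 2 genes the search thus covered mostly or only transcribed sequence. GGCGCC was found 4 times in the Hes5 window, once in that of Id2 and once in that of Id4, against 9.59% of all windows with any match. The Hes5 and Id4 windows were 71.6% and 75.6% G and C. A match is a description of letters and was not tested as a binding site.

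Counts per library were close to equal, from 52611841 to 55329229 in neurons and from 53533940 to 55615151 in NPCs. The levels of neuron markers, summed over 7 genes, were 6334 and 6547 CPM (TMM-scaled counts relative to a fixed library total) in neurons, against 1374 and 1367 CPM in NPCs. All 8 radial glia markers were higher in NPCs, with log2 changes (neurons over NPCs throughout) from -3.25 to -2.02. Neuron libraries thus held radial glia marker RNA too, at 585 and 605 CPM in all, against 3078 and 3076 CPM in NPCs. Markers of other cell types were higher in the NPC libraries as well. The 10 endothelial markers summed to 8.79 and 8.74 CPM in neurons, against 246 and 252 CPM in NPCs, and 6 oligodendrocyte precursor markers to 2.97 and 3.86 CPM in neurons, against 181 and 186 CPM in NPCs. The 7 tested mural markers, of the cells that wrap vessels, were all higher in NPCs, with a median of -4.54. The 8 microglia markers had a median of -1.06 and the 6 tested red blood cell genes one of -2.59, and all of these were higher in NPCs. The alpha haemoglobin genes had nearly the same values as each other in each library, and so did the beta haemoglobin genes. The 6 red blood cell genes are thus not 6 independent values. Of 5 tested choroid plexus and meninges markers, 3 were higher in NPCs (median -1.80). Of 7 interneuron markers, 2 were higher in neurons and 3 in NPCs (median -0.25), and the 4 tested Cajal-Retzius markers were all higher in neurons (median 2.62). The 5 intermediate progenitor markers were all higher in NPCs (median -2.12). The part of these cells in the levels below was not tested.

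Of the 10 genes, 9 fell in neurons and 1, Id2, rose. Each adjusted p was computed with the quasi-likelihood F test of edgeR, adjusted by Benjamini-Hochberg over the 15292 genes tested, with a threshold of 0.05. Values after ± are SD with n = 2 libraries per group unless a standard error (SE) is named. Of all genes tested, 36.9% were higher in NPCs, 35.8% were higher in neurons and 72.6% passed in either direction. Scaled by library size alone, 33.5% of called genes were higher in neurons, against 49.2% with TMM factors. Both NPC libraries lay above both neuron libraries for the 9 falling genes, as for 44.0% of all genes, and both neuron libraries lay above for Id2, as for 41.9%. Of the 10 genes, 6 were at least 4-fold higher in NPCs by log2 change, where 9.39% of all genes were called at that size, and Id2 was at least 4-fold higher in neurons, where 3.26% were. The median log2 change was -2.41 over the 10 genes and -0.019 over all genes. Libraries of a group are labelled as duplicates with no word on litters, so the p-values reflect spread that may be purely technical. In sorted populations, fewer cells that express a gene and less RNA of it per cell cannot be told apart.

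**Figure D1:**
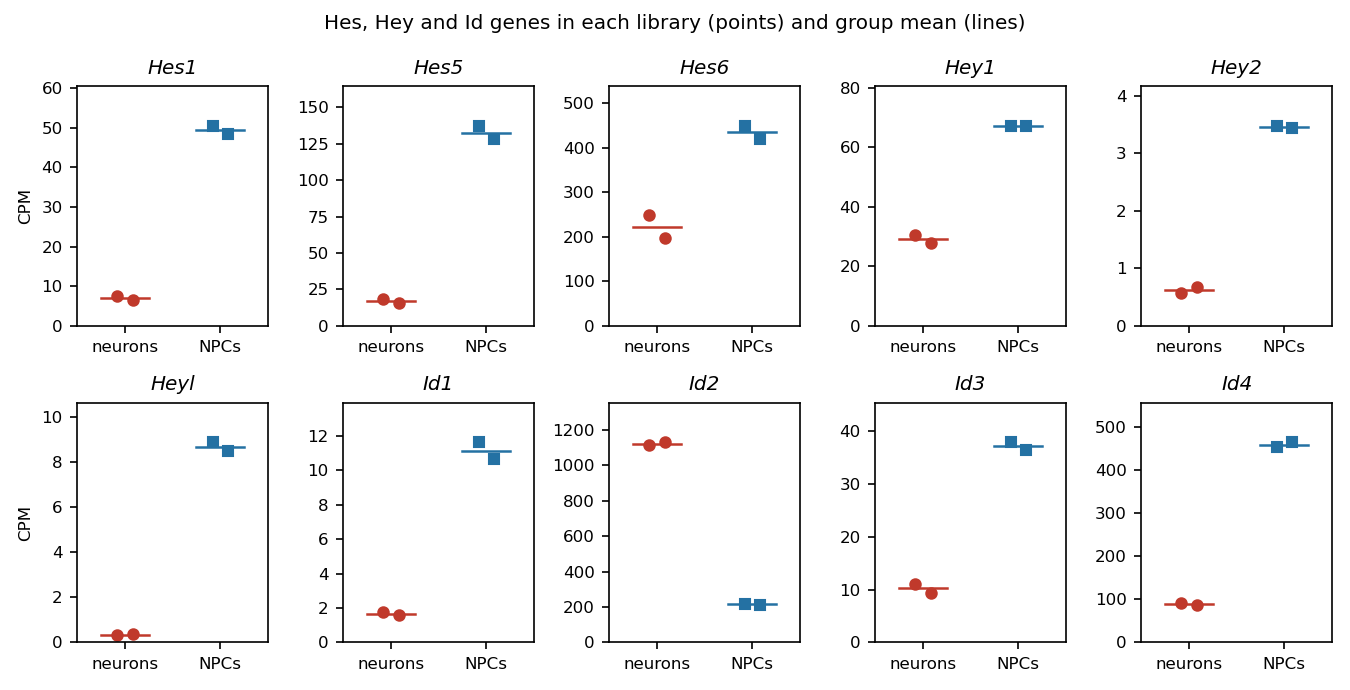
Level of each of the 10 genes in CPM (vertical axes, each from 0) in the 2 neuron libraries (red circles, left) and the 2 NPC libraries (blue squares, right), with lines at the group means. Id2 is the 1 gene with both neuron libraries above both NPC libraries, at 1115 and 1129 CPM against 216 and 214 CPM.

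The Notch effectors Hes1 and Hes5 fell in neurons by similar amounts. Hes5 was at 18.1 and 15.5 CPM in the neuron libraries, against 137 and 128 CPM in the NPC libraries. The groups lay far apart, and the higher neuron library exceeded the lower one 1.17-fold. The log2 change was -2.98 ± 0.08 (SE; 95% interval -3.14 to -2.82; adjusted p = 4.2e-15), so that neurons held 12.7% of the NPC level. Hes1, whose protein oscillates in dividing progenitors, was at 7.56 and 6.64 CPM in neurons, against 50.4 and 48.4 CPM in NPCs. Its log2 change was -2.80 ± 0.08 (SE; 95% interval -2.98 to -2.62; adjusted p = 2.7e-14), with 14.4% of the NPC level in neurons. The intervals of Hes1 and Hes5 overlap, and both changes lie within the range of the 8 radial glia markers. Both also lie within the choroid plexus and meninges range, from -3.71 to -0.14, and Hes1 within that of red blood cell genes, from -2.85 to -1.75.

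Hes6 was the most abundant Hes gene in both groups and fell least. It was at 249 and 196 CPM in neurons, against 449 and 420 CPM in NPCs. The groups did not overlap, but the neuron libraries differed 1.27-fold from each other, the widest gap within a group of any of the 10 genes. The log2 change was -0.97 ± 0.08 (SE; 95% interval -1.14 to -0.79; adjusted p = 1.5e-08), and neurons kept 51.2% of the NPC level. This change lies outside the range of the radial glia markers and inside that of the 5 intermediate progenitor markers, from -2.51 to -0.74. It also lies inside the ranges of interneuron (-1.16 to 0.75), microglia (-1.62 to -0.79) and choroid plexus and meninges markers (-3.71 to -0.14), so the match is not specific. Nor is it particular to Hes6, as Hey1, Hey2, Id3 and Id4 also lay inside the intermediate progenitor range. Of these, Hey1 and Id3 were likewise outside the radial glia range. Across the 4 libraries, the 2 genes nearest to Hes6 in log2 CPM were H2afv, a histone variant gene (Euclidean distance 0.297), and Coro1c, which encodes an actin-binding coronin (0.301).

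The 3 Hey genes all fell in neurons, by very different amounts. Hey1 was the only Hey gene with a high level, at 30.6 and 27.7 CPM in neurons, against 67.1 and 67.0 CPM in NPCs. Its log2 change was -1.20 ± 0.07 (SE; 95% interval -1.34 to -1.06; adjusted p = 5.3e-11), and neurons held 43.5% of the NPC level. The 2 genes nearest to Hey1 over the 4 libraries were Fgfbp3, which encodes a binding protein of fibroblast growth factors (Euclidean distance 0.106), and the cyclin gene Ccnd3 (0.127).

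Hey2 and Heyl were rare in both groups. Hey2 had 28 and 35 counts in the neuron libraries, against 200.0 and 205 counts in the NPC libraries. The log2 change was -2.46 ± 0.22 (SE; 95% interval -2.93 to -1.98; adjusted p = 3.9e-08), the widest interval of the 10 genes. Heyl had 16 and 19 counts in neurons, against 510 and 506 counts in NPCs. At -4.63 ± 0.20 (SE; 95% interval -5.05 to -4.21; adjusted p = 1.9e-12), Heyl had the lowest log2 change of the 10 genes, and 1.07% of all genes tested were lower. Its neuron level was 4.01% of the NPC level. Heyl was the 1 gene of the 10 whose change lay within the range of the endothelial markers, from -5.37 to -4.05, and within that of the mural markers, from -5.16 to -3.06. Hey genes are known from vessels, and the endothelial sum was 8.79 and 8.74 CPM in neurons, against 246 and 252 CPM in NPCs. The part of vascular RNA in the Hey levels was not tested.

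**Figure D2:**
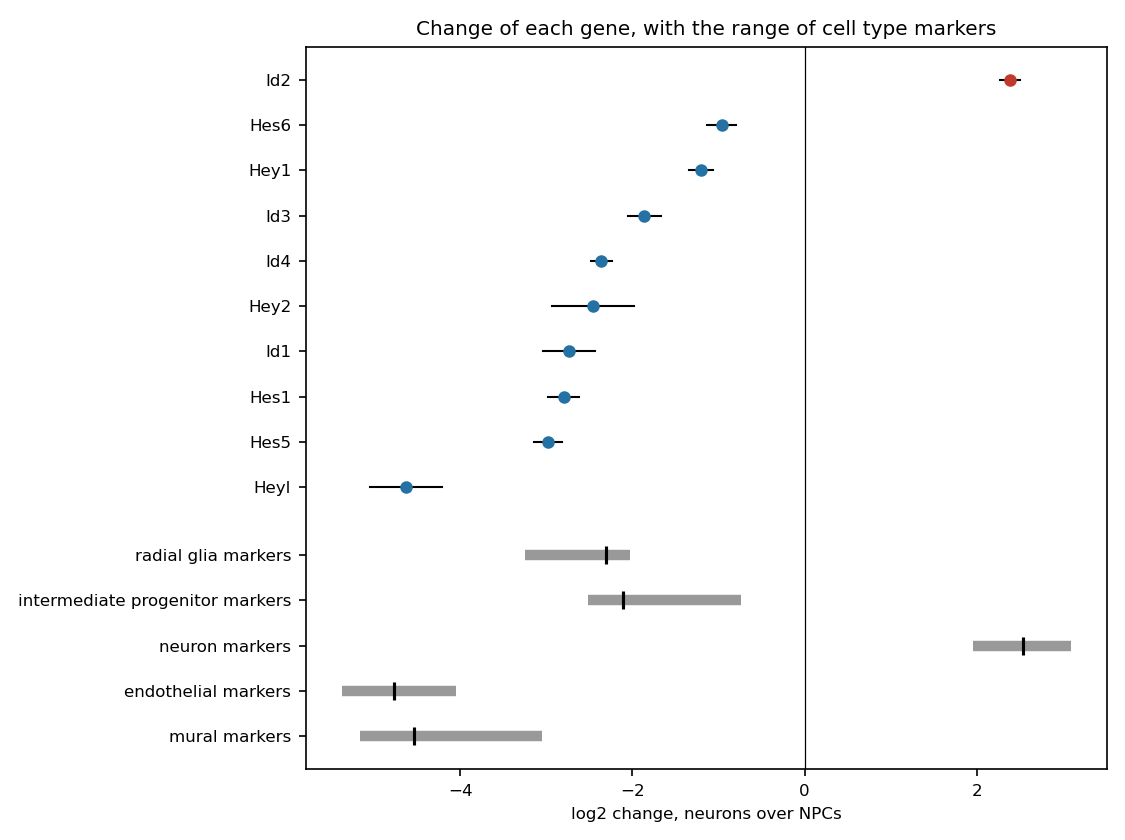
The log2 change (horizontal axis, neurons over NPCs) of each of the 10 genes as points with 95% intervals, above grey bars that span the lowest to the highest log2 change of cell type markers, with a tick at the median. Hes5, Hes1, Id1, Hey2 and Id4 lie within the radial glia span, Heyl lies in the endothelial and mural spans, and Id2 lies in the neuron span from 1.96 to 3.09. Hes6, Hey1, Hey2, Id3 and Id4 lie within the intermediate progenitor span. Spans of other cell types that are not drawn hold some of the same genes.

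Among the Id genes, Id2 went the opposite way from the other 3. Id2 was at 1115 and 1129 CPM in the neuron libraries, against 216 and 214 CPM in the NPC libraries. The libraries of a group differed by no more than 1.01-fold, and the neuron mean was 5.22 times the NPC mean. The log2 change was 2.38 ± 0.06 (SE; 95% interval 2.27 to 2.50; adjusted p = 2.3e-15), and 98.2% of all genes tested had a lower one. By mean CPM, Id2 stood 69th of the genes tested in neurons and 801st in NPCs. The 2 genes nearest to Id2 over the 4 libraries were Gria2, which encodes an AMPA glutamate receptor subunit (Euclidean distance 0.235), and Crmp1, which encodes a collapsin response mediator protein (0.317). Gria2 was at 1161 ± 36.4 CPM in neurons and 239 ± 2.98 CPM in NPCs.

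Id4, which is known to promote progenitor divisions in the mouse cortex, was the most abundant of the falling Id genes. It was at 91.5 and 86.9 CPM in neurons, against 454 and 463 CPM in NPCs. The log2 change was -2.36 ± 0.06 (SE; 95% interval -2.48 to -2.24; adjusted p = 3.0e-15), and neurons held 19.5% of the NPC level. Its size was close to that of Id2 with the sign turned. Exons of Id4 overlap those of the antisense genes A330033J07Rik and Gm49291, and exons of Hes5 overlap the antisense gene Gm20421. Use of strand in counting is not given in the sources used here, so reads of these genes and of their antisense partners cannot be told apart.

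Id1 and Id3, the Id genes best known as BMP targets and also expressed in vessels, fell in neurons at lower levels. Id3 was at 11.1 and 9.36 CPM in neurons, against 37.9 and 36.4 CPM in NPCs, a log2 change of -1.86 ± 0.09 (SE; 95% interval -2.05 to -1.67; adjusted p = 7.4e-12). Id1 was at 1.76 and 1.57 CPM in neurons, against 11.6 and 10.6 CPM in NPCs, a log2 change of -2.74 ± 0.14 (SE; 95% interval -3.04 to -2.44; adjusted p = 2.3e-11). The groups did not overlap for either gene. Both changes were smaller than that of any endothelial marker, of which the least was -4.05, and endothelial RNA was higher in the same NPC libraries. Both lay within the ranges of red blood cell genes (-2.85 to -1.75) and of choroid plexus and meninges markers (-3.71 to -0.14), as did Id4. Id3 and Id4 also lay within the range of intermediate progenitor markers (-2.51 to -0.74). Id2 lay within that of Cajal-Retzius markers (1.94 to 3.32) as well as that of neuron markers.

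To set the genes beside each other, CPM was divided by the length of annotated exons in kb (GENCODE M21, GRCm38), from 1.16 kb for Id1 to 4.54 kb for Heyl. In neurons the highest was Id2 at 460 ± 4.06 CPM per kb. Hes6 followed at 167 ± 27.8, Id4 at 23.2 ± 0.858 and Hes5 at 13.2 ± 1.48 CPM per kb. Hey1 was at 12.0 ± 0.844 CPM per kb in neurons. Hes5 was above Hey1 in neuron library 1 (14.2 against 12.6 CPM per kb) and in neuron library 2 (12.1 against 11.4). Taken across libraries, the values of these 2 neighbours overlapped. Id3, Hes1, Id1, Hey2 and Heyl came next in that order, from 8.01 ± 0.975 down to 0.0767 ± 0.0063 CPM per kb. In NPCs the order was Hes6, Id4, Hes5, Id2, Hes1, Id3, Hey1, Id1, Heyl and Hey2, from 325 ± 15.1 CPM per kb for Hes6 to 1.35 ± 0.0106 CPM per kb for Hey2. Id4 was at 119 ± 1.78, Hes5 at 104 ± 5.07 and Id2 at 88.1 ± 0.74 CPM per kb in NPCs. No 2 neighbours in the NPC order overlapped, though Id3 exceeded Hey1 by only 1.05-fold. Levels between genes depend on the exon length used, and dividing by that length leaves the change of 1 gene as it was.

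The make-up of each family differed between the groups. Id2 made up 93.1% and 93.7% of the summed Id level per kb in neurons, against 36.0% and 35.7% in NPCs. Id4 made up 4.84% and 4.57% in neurons, against 47.9% and 49.0% in NPCs. The summed Id level was 2.00 times as high in neurons, at 493 ± 2.11 CPM per kb, against 246 ± 0.342 CPM per kb in NPCs. Without Id2, the sum of Id1, Id3 and Id4 was 32.6 ± 1.95 CPM per kb in neurons and 158 ± 0.399 CPM per kb in NPCs. With 2 libraries a group, the smallest exact permutation p is 0.333, so shares and sums are given without a test.

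Hes6 made up 90.6% and 89.8% of the summed Hes level per kb in neurons, against 70.3% and 70.2% in NPCs. Within each library, Hes6 was 9.61 and 8.82 times the sum of Hes1 and Hes5 in neurons, against 2.36 times in both NPC libraries. The Hes sum was 185 ± 29.7 CPM per kb in neurons and 463 ± 21.1 CPM per kb in NPCs, and the Hey sum was 12.4 ± 0.809 CPM per kb in neurons and 30.9 ± 0.113 CPM per kb in NPCs. Over all 10 genes the sum was 690 ± 28.4 CPM per kb in neurons and 740 ± 21.6 CPM per kb in NPCs.

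**Figure D3:**
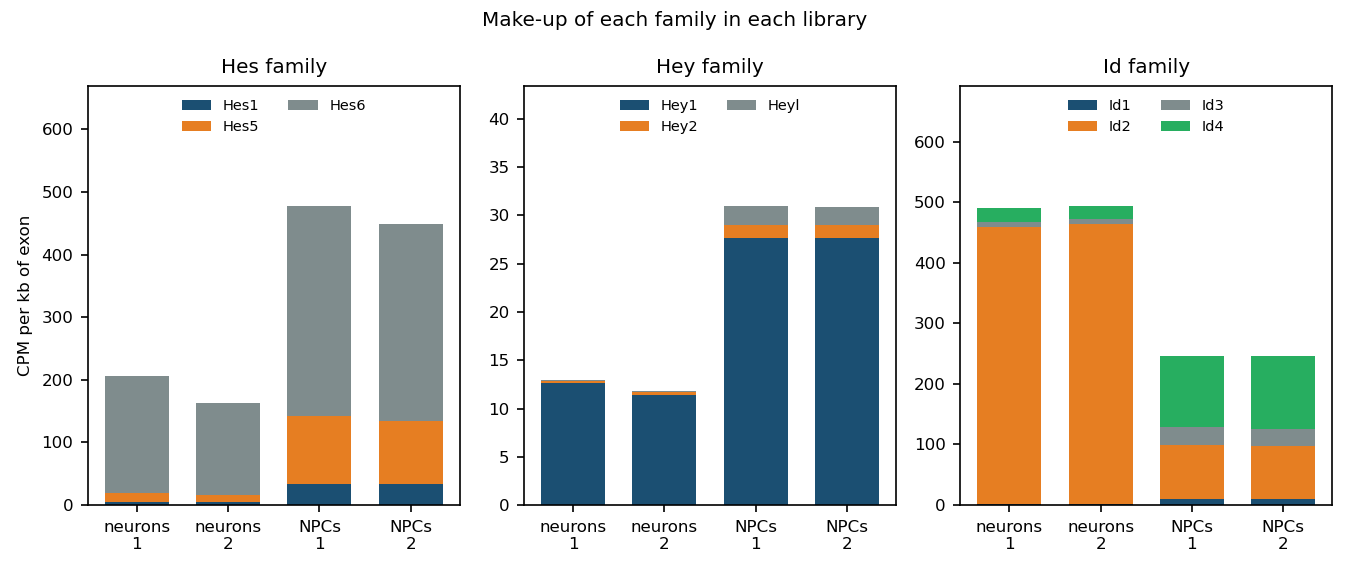
Stacked bars of CPM per kb of exon (vertical axes, from 0) for the Hes, Hey and Id families in neuron libraries 1 and 2 and NPC libraries 1 and 2. Id2 fills 93.1% and 93.7% of the Id bars in neurons, against 36.0% and 35.7% in NPCs, while Id4 is the largest part in NPCs.

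Genes that act above, beside and below these factors were counted from lists written from general knowledge, and each count is read against the 35.8% of all genes that were higher in neurons, the 36.9% higher in NPCs and the 72.6% called either way. Of 26 Notch ligands, receptors and modifiers, 13 fell and 6 rose in neurons, and 7 missed the threshold (median log2 change -0.42). The list was called about as often as all genes (72.6%), so its count called either way is no result about Notch genes. Its split by direction, beside 36.9% of all genes higher in NPCs and 35.8% higher in neurons, was not tested. The receptor genes Notch1 and Notch3 fell, with Notch1 at 21.7 and 23.0 CPM in neurons, against 111 and 114 CPM in NPCs (log2 change -2.33 ± 0.06, SE). Notch3, which mural cells also express, had a log2 change of -3.06 ± 0.11 (SE). The sheddase gene Adam10 was at 146 CPM in neurons and 154 CPM in NPCs and did not pass (-0.077 ± 0.05, SE; adjusted p = 0.22), though it passed as higher in NPCs with upper-quartile factors (-0.18), library size only (-0.28) and the 5 CPM filter (-0.12). With library size only, 3 genes of this list were higher in neurons.

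Of 7 genes listed as the Notch nuclear complex and its targets, 1 was higher in neurons and 5 were higher in NPCs (median -0.36), against 35.8% and 36.9% of all genes, and 7 genes are too few to read more from the count. The feedback inhibitor gene Nrarp, a Notch target like Hes5, was at 14.6 and 15.6 CPM in neurons, against 71.9 and 73.5 CPM in NPCs, a log2 change of -2.27 ± 0.07 (SE). The shared factor gene Rbpj changed far less, by -0.33 ± 0.06 (SE). The 1 gene higher in neurons was Kctd12 (2.47 ± 0.08, SE), which is known as a GABA-B receptor subunit and does not do what the list's name says. Without neuron replicate 1, Spen also passed as higher in neurons (0.18). Of 6 other Hes-related genes, 3 were tested, of which 2 were higher in NPCs and 0 in neurons. Bhlhe40, a repressor tied to the circadian clock, had a log2 change of -2.12 ± 0.13 (SE), and Helt, a repressor known from the midbrain, at 0.0592 CPM in neurons and 2.16 CPM in NPCs, had one of -5.13 ± 0.44 (SE). Hes7 did not pass (-0.41 ± 0.54, SE; adjusted p = 0.50).

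Groucho/TLE corepressors are partners of Hes proteins, and E proteins are partners of Id proteins. Of 7 genes listed as corepressors, which were Groucho/TLE family genes and Sirt1, 4 were higher in neurons and 1, Tle6, was higher in NPCs (median 0.15). Whether each listed gene, Aes and Tle6 among them, acts as a corepressor with Hes proteins was not tested. The share called was near the 72.6% of all genes. Tle4 was at 126 and 128 CPM in neurons, against 45.1 and 46.1 CPM in NPCs, a log2 change of 1.47 ± 0.06 (SE), and Tle2 had one of 1.10 ± 0.13 (SE). Aes, the most abundant gene of this list, had a log2 change of 0.32 ± 0.06 (SE), a call lost with library size only (0.11). The call of Tle1 as higher in neurons was lost with upper-quartile factors (0.054), library size only (-0.053) and the 5 CPM filter (0.11), among other settings. The Tle6 call was lost without NPC replicate 2. Of the 3 E protein genes, Tcf4 was higher in neurons (0.31 ± 0.05, SE), a call lost with library size only (0.098). Tcf3 and Tcf12 were higher in NPCs, with log2 changes of -1.36 ± 0.06 and -0.29 ± 0.06 (SE). Their sum per kb was 202 ± 4.15 CPM per kb in neurons and 212 ± 3.19 CPM per kb in NPCs. Relative to that sum, the summed Id level was 2.40 and 2.49 in neurons, against 1.17 and 1.15 in NPCs. Without Id2 the same ratio was 0.166 and 0.157 in neurons, against 0.751 and 0.738 in NPCs. Tcf4 was divided by 13.4 kb of exon, joined over 24 annotated transcripts. The size of these ratios, and whether the Id level exceeds that of E proteins, depends on the lengths used.

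Among 11 tested bHLH activator genes, 5 were higher in neurons and 5 in NPCs (median -0.15). All genes tested were split about evenly too, with 35.8% higher in neurons and 36.9% in NPCs. Neurog2, the main proneural gene of the dorsal cortex, was at 226 and 199 CPM in neurons, against 1369 and 1355 CPM in NPCs. Within each library the sum of Hes1 and Hes5 per kb was 0.191 and 0.187 times Neurog2 in neurons, against 0.231 and 0.219 times in NPCs. Bhlhe22, a factor of postmitotic projection neurons, had a log2 change of 3.13 ± 0.07 (SE), and Neurod6, a marker of young pyramidal neurons, at 2426 CPM in neurons and 682 CPM in NPCs, had one of 1.83 ± 0.06 (SE). Olig1, a gene of oligodendrocyte precursors, had one of -6.27 ± 0.13 (SE).

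BMP pathway genes are known to act above Id genes. Of 14 tested receptor and Smad genes, 5 were higher in neurons and 7 in NPCs (median -0.25). The share higher in neurons was near the 35.8% of all genes, where 36.9% were higher in NPCs. The receptor gene Bmpr1a was at 92.0 and 94.1 CPM in neurons, against 191 and 205 CPM in NPCs, a log2 change of -1.09 ± 0.06 (SE). Eng, an endothelial co-receptor gene, had a log2 change of -4.18 ± 0.21 (SE). The shared factor gene Smad4 was higher in neurons by 0.17 ± 0.05 (SE), a call lost without either NPC library (0.14 and 0.20), with upper-quartile factors (0.069) or with the 5 CPM filter (0.12), and turned to -0.037 with library size only. Of 12 tested ligand and antagonist genes, 3 were higher in neurons and 7 in NPCs (median -0.99), against 35.8% and 36.9% of all genes. The secreted modulator gene Bmper and the ligand gene Bmp7 were higher in NPCs, with log2 changes of -1.69 ± 0.07 and -4.08 ± 0.25 (SE), and the abundant modulator gene Twsg1 had one of -0.29 ± 0.06 (SE). With library size only, and likewise with the 5 CPM filter, 1 gene of this list was higher in neurons, and with that filter 2 were higher in NPCs. Of the 3 genes called higher in neurons, Bmp2 was rare, at 0.369 CPM in neurons and 0.154 CPM in NPCs. Its call was lost with library size only (1.05), no low-count filter (1.26) and DESeq2 (1.27), among other settings. Bmp4 had 0 counts in both neuron libraries, against 11 and 16 counts in NPCs, and was at least 7.71-fold lower in neurons when 3 counts over both libraries are taken as the floor.

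**Figure D4:**
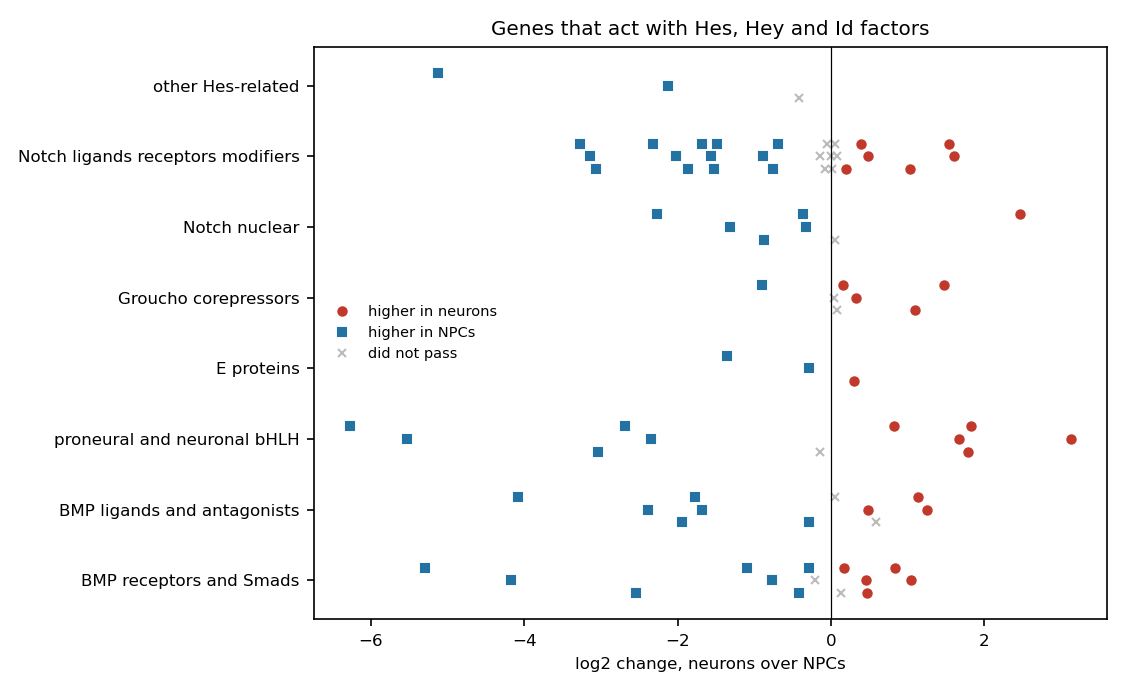
The log2 change (horizontal axis, neurons over NPCs) of each tested gene of 8 lists, as red circles where higher in neurons, blue squares where higher in NPCs and grey crosses where the test was not passed. Bmp4, with 0 counts in neurons, is left out. The Notch, corepressor, E protein, bHLH and BMP lists lie on both sides of 0, and the other Hes-related genes all lie below 0.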

How the data were processed

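RNA-seq gene counts were analysed from 2 neuron and 2 NPC libraries of sorted mouse cortical cells, grouped by title. The authors deposited 1 table of estimated counts per gene, not scaled between libraries. Values below 10000 (88416 of 88416) were steps of 1 base of a 101-base read, within 0.01 base. The genome build was mm9 and the tools TopHat 1.2.0, CASAVA 1.9 and SAMtools 0.1.18, per the submitters' processing notes. Which counter and annotation were used, and how strand and multiple alignments were treated, is not given in the sources used here. Sequences and gene lengths are from GRCm38, and no coordinates were converted.

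Counts were rounded and filtered with filterByExpr (15292 genes kept, 7948 rows removed). They were scaled with TMM and tested with edgeR 4.0.16 in R 4.3.3 by the two-sided, unpaired quasi-likelihood test, with Benjamini-Hochberg adjustment over all genes and a threshold of 0.05. The standard error was the change over the square root of F. The test was checked on simulated data. Chi-square per gene was 14.1 for the neuron pair and 4.56 for the NPC pair, so duplicates were kept apart.

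Named genes were the 10 members, for each pathway list the 2 with the smallest p and the 1 with the highest mean CPM, and the 2 genes nearest in log2 CPM (prior count 2) to the most abundant Hes, Hey and Id gene. Gria2, Crmp1 and the others nearest follow from that rule. Tcf12, Neurog2, Tle1, Tle6, Hes7, Spen, Bmp2, Bmp4 and the antisense genes were named after their values were seen. Sirt1 was named to describe its list. The list of bHLH activators held 1 more gene, which is not reported here. The members and lists were chosen with earlier results of these data known. Alternatives were other scalings and filters, DESeq2 1.42.0, limma-voom (limma 3.58.1), a replicate block and leaving out each library.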

Additional observations from a re-analysis of the deposited data

How the results depend on the processing

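All 118 values of the 10 genes under 12 alternative settings kept their direction and their side of the threshold. Hey2 and Heyl have no value with the filter of 5 CPM, which removed them. With library size only, the median log2 change of all genes was -0.23, and Hes6 and Id2 were at -1.17 and 2.18. With upper-quartile factors the median was -0.12. Of 192 counts over lists, 180 stayed within 1.5 times. With library size only, genes higher in neurons numbered 3 for Notch ligands, receptors and modifiers, 2 for corepressors, 0 for E proteins and 1 for BMP ligands and antagonists, and 2 corepressors were higher in NPCs. With the filter of 5 CPM, those higher in NPCs numbered 1 for other Hes-related genes, 0 for corepressors, 2 for BMP ligands and antagonists and 4 for BMP receptors and Smads, and 1 BMP ligand or antagonist gene was higher in neurons. This filter removes genes from the test. The cause of the other shifts was not tested. Leaving out 1 library gave 1 to 2 Notch nuclear genes higher in neurons and 0 to 1 corepressors higher in NPCs. Smad4 turned to -0.037 with library size only. Genes called numbered 9773 to 11252 when 1 library was left out. With the replicate block, 9 of the 10 genes fell and 1 rose in neurons, and 11206 genes were called in all, against 11108 without it. The deviations of same-numbered libraries had a correlation of -0.014, so the numbers were not taken to pair the samples. Depth limits Hey2 and Heyl, which had 16 to 35 counts in neuron libraries.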
